A study of Mus musculus with 6 samples.

Results

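The kainate receptor genes Grik1, Grik2, Grik3, Grik4 and Grik5 and the delta receptor gene Grid1 were examined, matched by symbol to 6 of the 54752 genes in the count tables. RNA came from the right hippocampus of 6 wild-type C57BL/6 mice, described by the study as male C57BL/6 J, for which the labels list a time of 14 weeks, taken here as age. In the 3 BCAS mice (bilateral carotid artery stenosis), a microcoil narrowed each common carotid artery, and in the 3 sham mice the arteries were exposed and left without coils. Tissue was taken 3 weeks after surgery. The right hippocampus lies on the side of the narrower coil, and only mice that survived surgery were sampled. The model reduces blood flow to the whole forebrain and is not restricted to one cell type. Each mouse gave 1 library, and mice are numbered by the replicate numbers in the labels.

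Kainate receptors are tetrameric cation channels opened by glutamate. GluK1, GluK2 and GluK3 (Grik1 to Grik3) form working channels on their own, whereas GluK4 and GluK5 (Grik4 and Grik5) bind kainate with high affinity but need a partner from the first group. In the hippocampus they act before and after the synapse and are best known at the mossy fibre input to CA3, with Grik4 most abundant in CA3 pyramidal cells and Grik1 in interneurons. The delta receptor GluD1 (Grid1) belongs to the same protein family but is not opened by glutamate. It binds secreted cerebellins, which link it to presynaptic neurexins and organize synapses.

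The coding sequence of the channel pore is shown because it holds the family's shared core and a site at which GluK1 and GluK2 transcripts are edited. Each stretch runs 5′ to 3′ over 123 bases of coding exon, from 9 bases before this codon to the end of the conserved membrane segment that lines the pore. Capitals mark the codon of the Q/R editing site in Grik1 and Grik2 and the codon at the same position in the other genes. The stretches, chosen with the results known, come from GENCODE M21 transcripts on GRCm38 (mm10).
Grik1: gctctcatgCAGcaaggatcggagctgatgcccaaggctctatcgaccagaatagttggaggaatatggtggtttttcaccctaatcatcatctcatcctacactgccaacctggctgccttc
Grik2: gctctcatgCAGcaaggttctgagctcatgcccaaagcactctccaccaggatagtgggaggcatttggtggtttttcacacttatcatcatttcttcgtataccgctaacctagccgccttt
Grik3: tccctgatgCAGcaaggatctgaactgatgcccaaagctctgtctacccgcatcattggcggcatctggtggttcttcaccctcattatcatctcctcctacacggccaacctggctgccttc
Grik4: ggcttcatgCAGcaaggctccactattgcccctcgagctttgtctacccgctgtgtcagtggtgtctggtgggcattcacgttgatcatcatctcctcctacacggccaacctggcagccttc
Grik5: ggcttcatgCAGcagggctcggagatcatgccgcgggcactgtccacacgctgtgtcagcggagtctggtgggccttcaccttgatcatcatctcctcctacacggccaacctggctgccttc
Grid1: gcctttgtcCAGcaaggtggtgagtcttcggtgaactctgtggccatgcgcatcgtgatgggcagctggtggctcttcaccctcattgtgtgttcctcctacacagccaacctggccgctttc

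All 6 genes carry the same CAG codon at this position, and each stretch is split over 2 exons. Genome positions are chr16:87936009-87940553 for Grik1 (minus strand, exons 13 and 14 of the transcript used) and chr10:49240690-49244340 for Grik2 (minus strand, exons 12 and 13). Grik3 is read from chr4:125691198-125694068 (plus strand, exons 12 and 13) and Grik4 from chr9:42543869-42547634 (minus strand, exons 14 and 15). Grik5 is read from chr7:25015919-25022508 (minus strand, exons 15 and 16) and Grid1 from chr14:35450381-35452367 (plus strand, exons 11 and 12). Grik4 and Grik5 are identical at 83.7% of these bases, and Grik1 to Grik3 are identical to each other at 76.4% to 83.7%. Between those subfamilies identity is 62.6% to 75.6%, and Grid1 shares 58.5% to 68.3% with the kainate genes. The counts give gene totals, so the share of edited transcripts was not measured.

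Libraries held 29652456 to 35607098 counted reads, and genes were compared as CPM (read counts scaled to library size), adjusted by TMM (edgeR's trimmed mean normalization) with edgeR's quasi-likelihood test over 18617 tested genes. Of the hippocampal marker lists, Rgs14, Cpne4 and Bok (CA2 and CA3), Fibcd1 and Pou3f1 (CA1) and Prox1 (dentate granule cells) were all present, at 73.8 to 200 CPM in sham mice. All 6 microglia markers were higher in BCAS mice, with a summed level of 237 to 248 CPM in sham mice and 1338 to 2131 CPM in BCAS mice. Of the 6 astrocyte markers 5 were called higher, at a summed 4027 to 4243 CPM against 5901 to 5971 CPM. All 9 pan-neuronal markers had a lower mean and 6 were called lower. Their summed level was 6626 to 7161 CPM in sham mice and 3861 to 5436 CPM in BCAS mice. Of all tested genes 18.0% were called higher and 13.2% lower. Choroid plexus markers varied between mice in both groups, from a summed 70.1 to 4116 CPM in sham mice and 40.5 to 5977 CPM in BCAS mice. None of these lists had all its defining markers near 0. The part of these shifts in the results below was not tested, and in bulk tissue fewer cells of a type and less RNA per cell cannot be told apart.

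Grid1 and Grik4 were lower in the hippocampus of BCAS mice, at 69.6% and 65.4% of the sham level. Grik5 lay at 82.8% without passing the test, and Grik1, Grik2 and Grik3 ranged from 85.0% to 104%. With edgeR, 2 of the 6 genes were called lower at an adjusted P under 0.05, where 13.2% of all tested genes were called lower. None was called higher (0 at an unadjusted P under 0.05, 0 with DESeq2 and 0 with limma-voom), against 18.0% of all tested genes. None passed the study's DEG threshold, which also asks for an absolute log2 fold change above 1 (0 with DESeq2 and 0 with limma-voom as well), against 0.999% of tested genes lower and 8.47% higher. The median log2 fold change of the 6 genes was -0.25, beside 0.018 over all tested genes. All 6 passed the filter on low counts. Levels of Grid1, Grik4 and Grik5 did not overlap between the groups, which held, with BCAS mice lower, for 22.7% of tested genes.

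**Figure D1:**
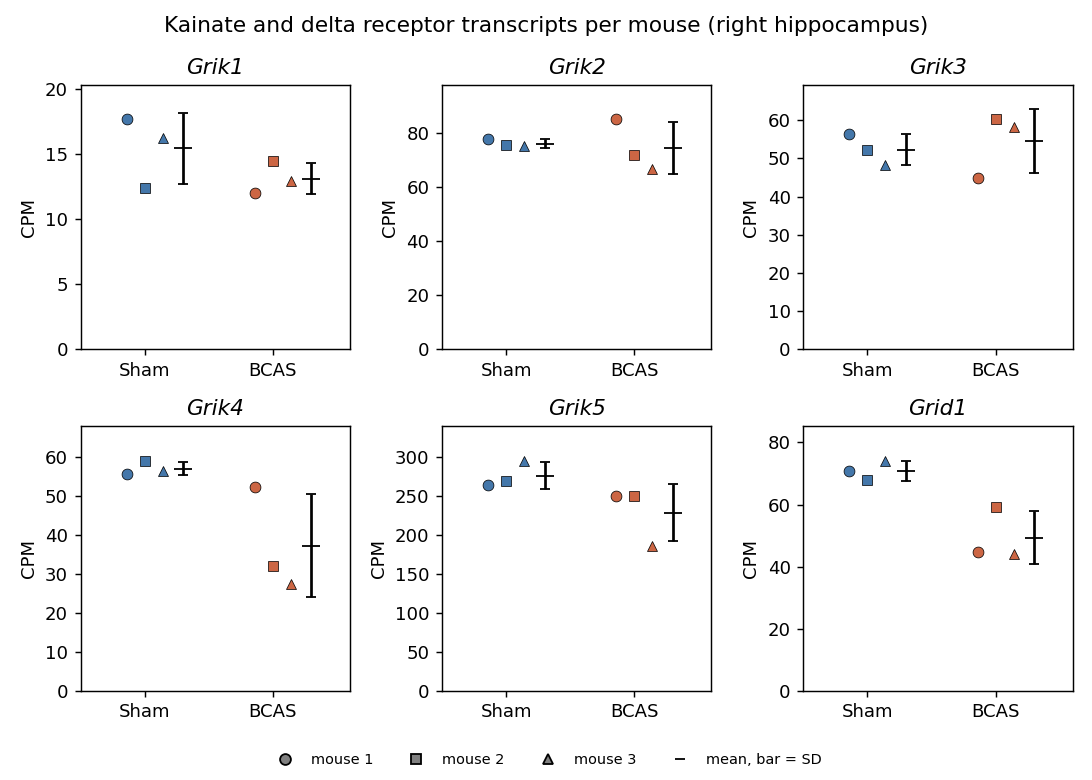
CPM of each kainate and delta receptor gene in the 3 sham mice (blue) and 3 BCAS mice (orange), with the mean and SD beside the points and every axis starting at 0. Grid1, Grik4 and Grik5 lie lower in all 3 BCAS mice, while BCAS mouse 1 is close to the sham mice for Grik4.

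Grid1 (ENSMUSG00000041078.7; chr14:34820108-35583379 in mm10, plus strand), which encodes GluD1, showed the firmest change. Its level was 70.8, 67.8 and 74.1 CPM in sham mice 1 to 3 and 44.7, 59.2 and 44.2 CPM in BCAS mice 1 to 3. Every BCAS mouse lay below every sham mouse, and BCAS mouse 2 was the closest to them. The log2 fold change was -0.52 (standard error 0.12, 95% interval -0.79 to -0.26, edgeR adjusted P = 0.00978). It stayed under 0.05 with each mouse left out in turn, where edgeR adjusted P ran from 3.97e-04 to 0.0450.

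Grik4 (ENSMUSG00000032017.14; chr9:42518135-42944493, minus strand), which encodes the high-affinity subunit GluK4, had the larger mean change but differed between the BCAS mice. Sham mice 1 to 3 had 55.6, 59.0 and 56.3 CPM. BCAS mice 1 to 3 had 52.3, 32.0 and 27.4 CPM, which is 91.8%, 56.1% and 48.1% of the sham mean. BCAS mouse 1 was thus just under the lowest sham mouse, and the other two were far below it. The log2 fold change was -0.61 (standard error 0.20, 95% interval -1.08 to -0.15, edgeR adjusted P = 0.0488). Without sham mouse 1, 2 or 3 it was -0.63, -0.59 and -0.62 (edgeR adjusted P = 0.112, 0.115 and 0.118). Without BCAS mouse 2 or 3 it was -0.53 and -0.44 (edgeR adjusted P = 0.0951 and 0.109). Grik4 thus no longer passed in any of these fits. Without BCAS mouse 1 the log2 fold change was -0.94 (edgeR adjusted P = 2.90e-04), and scaling by library totals alone gave -0.54 (edgeR adjusted P = 0.0730).

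Markers of CA2 and CA3 pyramidal cells, where Grik4 is known to be abundant, were lower in the same mice. Of the 6 listed genes, 5 were called lower, against 13.2% of all tested genes. The summed level of the 6 was 329 to 333 CPM in sham mice and 127 to 214 CPM in BCAS mice. Bok, a CA3 marker of the BCL2 family, stood at 69.7%, 49.6% and 42.5% of its sham mean in BCAS mice 1 to 3. Cpne4, a copine calcium-binding protein, stood at 67.6%, 55.0% and 37.6%. For both genes, as for Grik4, BCAS mouse 1 was highest and BCAS mouse 3 lowest, a likeness picked out after the values were seen. The CA2 marker Rgs14 showed that order at 54.6%, 43.4% and 29.3%, as did Iyd at 38.1%, 31.4% and 17.9%. Amigo2, at 73.9%, 46.9% and 58.6%, had its lowest level in BCAS mouse 2. Map3k15 was not called and lay at 186%, 96.2% and 180%. This order of BCAS mice, seen in 4 of the 6 CA2 and CA3 markers, was found in 15.4% of all 18617 tested genes and in 724 of the 2463 genes called lower (29.4%), among them Gria1, at 61.0%, 45.4% and 38.0% of its sham mean, Grin2a, at 55.6%, 41.7% and 35.7%, and the CA1 marker Spink8, at 36.5%, 16.7% and 14.3%. Markers of CA1 pyramidal cells were lower as well, with 4 of 6 called lower and a median log2 fold change of -0.95, against -0.90 for the CA2 and CA3 list. In BCAS mouse 1 Grik4 stood at 91.8% of its sham mean, above Bok, Cpne4, Rgs14, Iyd and Amigo2 and below Map3k15. The part of CA1, CA2 and CA3 pyramidal cells in the Grik4 result was not tested.

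**Figure D2:**
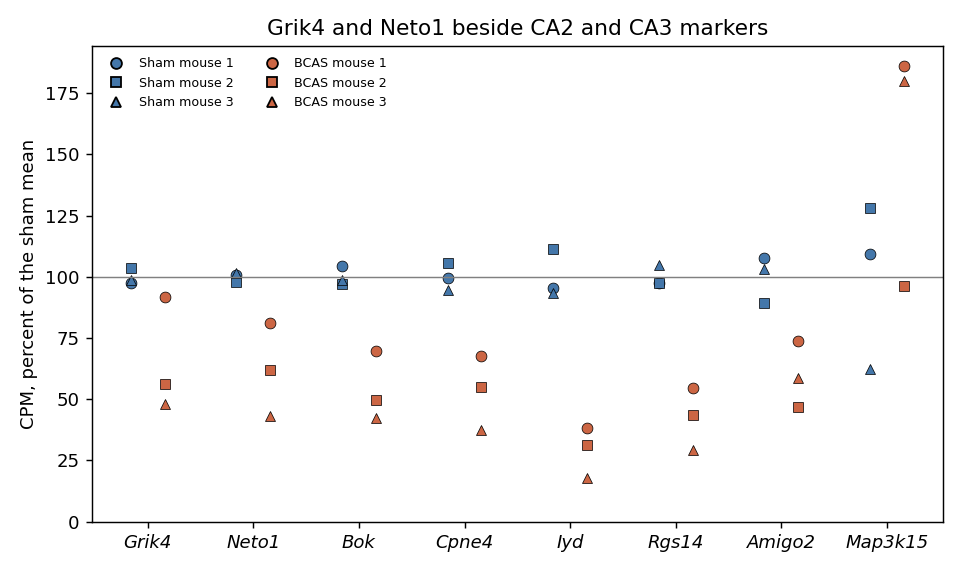
CPM as a percent of the sham mean for Grik4, its auxiliary subunit gene Neto1 and 6 CA2 and CA3 marker genes, 1 point per mouse (blue sham, orange BCAS). Grik4 stands at 91.8%, 56.1% and 48.1% in BCAS mice 1 to 3, and Neto1 (placed here after its values were seen), Bok, Cpne4, Iyd and Rgs14 show the same order of BCAS mice, unlike Amigo2 and Map3k15.

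Grik5 (ENSMUSG00000003378.9; chr7:25009849-25072346, minus strand), which encodes the other high-affinity subunit, GluK5, was lower in BCAS mice but did not pass the test. Its level was 264, 270 and 295 CPM in the sham mice and 249, 251 and 186 CPM in the BCAS mice. The groups did not overlap, although BCAS mice 1 and 2 were close to sham mouse 1 and BCAS mouse 3 lay far below. The log2 fold change was -0.27 (standard error 0.12, 95% interval -0.55 to 0.00037, edgeR adjusted P = 0.118). Without BCAS mouse 3 it was -0.15 (edgeR adjusted P = 0.179).

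Grik1 (ENSMUSG00000022935.16; chr16:87895900-88290265, minus strand) had the fewest reads, 391 to 599 counts per library. Its level was 17.7, 12.4 and 16.3 CPM in sham mice and 12.02, 14.4 and 12.9 CPM in BCAS mice, so the groups overlapped through sham mouse 2. The log2 fold change was -0.23 (standard error 0.15, 95% interval -0.58 to 0.11, edgeR adjusted P = 0.274). It was -0.13 without sham mouse 1 (edgeR adjusted P = 0.608) and -0.37 without sham mouse 2 (edgeR adjusted P = 0.0982). Grik1 is known from GABAergic interneurons. Of 8 listed markers of these cells, 5 were called lower (median log2 fold change -0.42), against 13.2% of all tested genes. Their summed level was 973 to 1076 CPM in sham mice and 657 to 766 CPM in BCAS mice. Gad1, the enzyme that makes GABA, fell from 392 ± 21.5 to 284 ± 11.1 CPM (SD, n = 3, edgeR adjusted P = 0.00311). The neuropeptide gene Sst fell from 221 ± 26.4 to 103 ± 29.3 CPM (edgeR adjusted P = 0.00232). Vip (log2 fold change -0.03, edgeR adjusted P = 0.929), Erbb4 (-0.12, 0.259) and Lhx6 (-0.38, 0.0895) were not called. The part of interneurons in the Grik1 result was not tested.

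Grik2 (ENSMUSG00000056073.16; chr10:49094833-49788766, minus strand) encodes GluK2, a subunit of most kainate receptors at mossy fibre synapses. It stood at 77.9, 75.5 and 75.1 CPM in sham mice and at 85.1, 71.8 and 66.8 CPM in BCAS mice. BCAS mouse 1 was above and BCAS mice 2 and 3 were below all sham mice. The log2 fold change was -0.03 (standard error 0.094, 95% interval -0.24 to 0.18, edgeR adjusted P = 0.833), and its sign turned with library totals (0.04) and without BCAS mouse 3 (0.04).

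Grik3 (ENSMUSG00000001985.9; chr4:125490700-125714173, plus strand) encodes GluK3, a subunit of low glutamate sensitivity. It had 56.4, 52.2 and 48.3 CPM in sham mice and 44.8, 60.2 and 58.3 CPM in BCAS mice, with BCAS mouse 1 below and BCAS mice 2 and 3 above all sham mice. The log2 fold change was 0.06 (standard error 0.12, 95% interval -0.21 to 0.33, edgeR adjusted P = 0.748), and it was -0.03 without BCAS mouse 2. The 95% intervals of Grik2 and Grik3 reached down to 84.4% and 86.4% of the sham level.

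Whether 2 of the genes changed by different amounts was tested on the log2 ratio of their CPM in each mouse, for 15 pairs, with an exact two-sided permutation test that cannot go below P = 0.1 with 3 mice per group. In 4 pairs the groups did not overlap (exact P = 0.1 each, adjusted P = 0.375 over the 15 pairs), and no other pair reached that limit. The log2 ratio of Grik2 to Grik4 averaged 0.42 ± 0.065 in the sham group and 1.05 ± 0.31 in the BCAS group (SD, n = 3; exact permutation P = 0.1). The other 3 pairs set Grid1 against a kainate gene. Grik2 to Grid1 moved from 0.10 to 0.60, Grik3 to Grid1 from -0.44 to 0.14 and Grik5 to Grid1 from 1.96 to 2.21. In each of these 3 pairs the ratio lay above the sham range in every BCAS mouse. The ratio of Grik4 to Grid1 overlapped between the groups, at -0.32 ± 0.10 and -0.45 ± 0.59 (SD, n = 3 each; exact permutation P = 0.8).

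To set the levels of different genes side by side, counts were divided by exonic length (RPKM, CPM per kilobase of exon). In sham mice Grik5 had the highest RPKM, 53.5 ± 3.26 (SD, n = 3), followed by Grid1 at 11.9 ± 0.532 and Grik4 at 9.55 ± 0.297. Grik3 at 5.83 ± 0.452 and Grik2 at 5.75 ± 0.115 RPKM did not differ beyond their spread, and Grik1 was lowest at 2.30 ± 0.404. In BCAS mice the order of the means was the same, with Grik5 at 44.2 ± 7.16, Grid1 at 8.28 ± 1.43, Grik4 at 6.24 ± 2.22, Grik3 at 6.06 ± 0.934, Grik2 at 5.63 ± 0.716 and Grik1 at 1.95 ± 0.182 RPKM. Grid1, Grik4, Grik3 and Grik2 were closer together there, and the ranges of neighbours among these 4 overlapped. The exonic length covers all annotated exons, from 5168 bases in Grik5 to 13246 bases in Grik2, and RPKM understates a gene where part of it is not used.

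Of the summed RPKM of the 5 kainate genes, Grik5 held 69.5% ± 1.77 in sham mice and 68.8% ± 2.30 in BCAS mice (SD, n = 3 each). The summed level was 75.1, 75.5 and 80.1 RPKM in sham mice and 70.2, 68.1 and 54.0 RPKM in BCAS mice, without overlap. The share of Grik4 was 12.4%, 13.1% and 11.8% in sham mice and 12.5%, 7.87% and 8.51% in BCAS mice, so BCAS mouse 1 kept a sham-like share. The share of Grik2 was 7.83%, 7.55% and 7.08% in sham mice and 9.15%, 7.96% and 9.33% in BCAS mice, higher in each of the latter. Grik3 held 7.60% ± 0.827 and 9.66% ± 2.46, and Grik1 held 2.99% ± 0.526 and 3.09% ± 0.508, both with overlap. The log2 ratio of the Grik4 and Grik5 sum to the Grik1, Grik2 and Grik3 sum came to 2.03, 2.22 and 2.31 in the sham group and 2.11, 1.92 and 1.59 in the BCAS group. It was lowest in BCAS mice 2 and 3, and BCAS mouse 1 lay within the sham range. Shares were not tested.

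**Figure D3:**
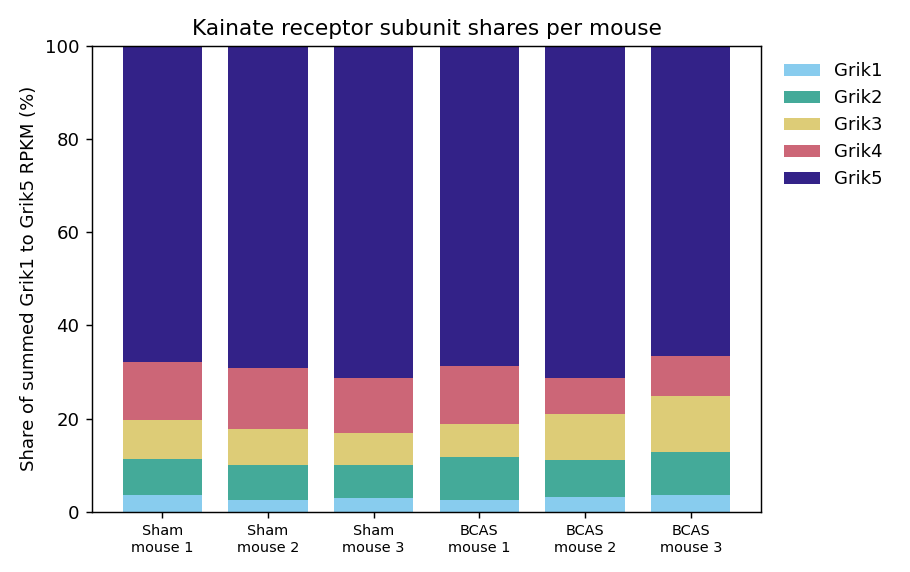
Share of each kainate receptor gene in the summed RPKM of Grik1 to Grik5, 1 bar per mouse. Grik5 takes between 66.6% and 71.4% in every mouse, and the Grik4 share is 7.87% and 8.51% in BCAS mice 2 and 3 against 11.8% to 13.1% in the other 4 mice.

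The 6 genes were then set beside transcripts common to neurons, as log2 CPM minus the mean log2 CPM of 9 pan-neuronal genes (Rbfox3, Snap25, Syt1, Map2, Tubb3, Eno2, Stmn2, Elavl4 and Nefm). That mean averaged 8.84 ± 0.042 in the sham group and 8.30 ± 0.21 in the BCAS group (SD, n = 3 each). Grid1 had -2.66, -2.74 and -2.67 in sham mice and -2.81, -2.63 and -2.63 in BCAS mice, below the sham range in BCAS mouse 1 and above it in the other two, with both group means at -2.69. Grik4 had -3.00, -2.94 and -3.07 in sham mice and -2.58, -3.52 and -3.32 in BCAS mice, above the sham range in BCAS mouse 1 and below it in the other two. On this scale Grik2 had -2.58 ± 0.067 in sham and -2.09 ± 0.24 in BCAS mice, Grik3 -3.13 ± 0.15 and -2.55 ± 0.29, and Grik5 -0.73 ± 0.045 and -0.48 ± 0.13, each without overlap between the groups. Grik1 overlapped, at -4.90 ± 0.27 and -4.59 ± 0.16. These differences are relative to a list whose mean was itself 0.53 lower in BCAS mice, and they were not tested. A gene with unchanged CPM would lie about that much higher on this scale in BCAS mice. How many of all tested genes did not overlap on this scale was not counted.

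**Figure D4:**
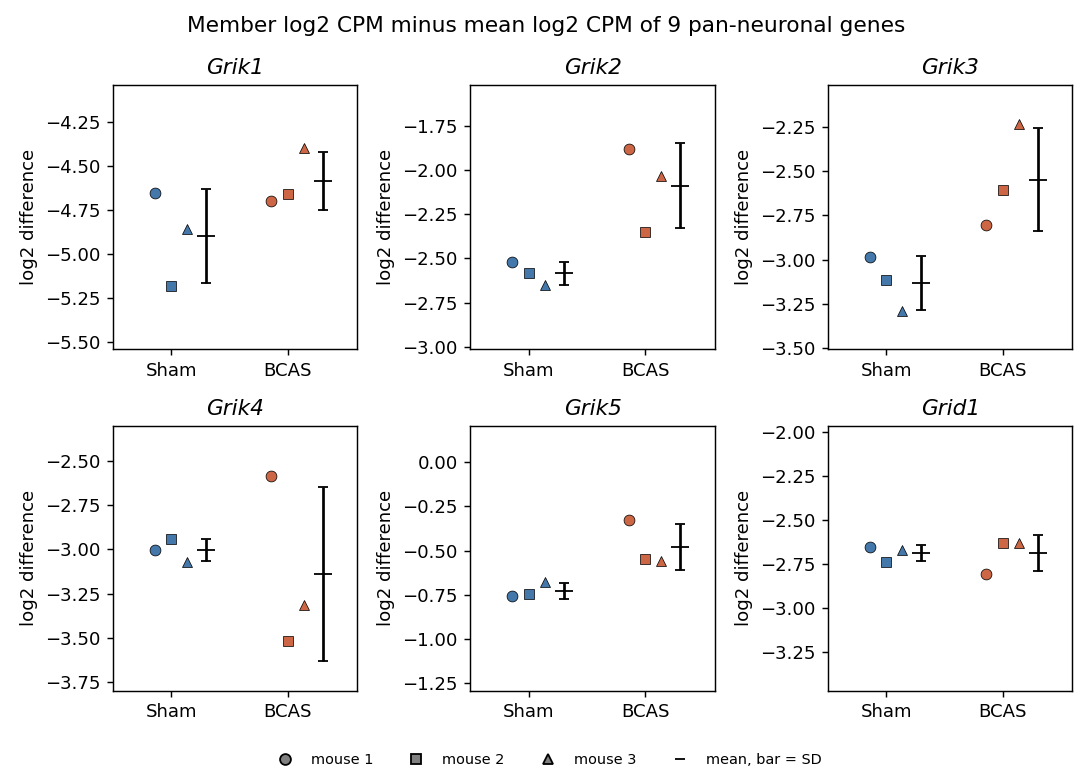
Log2 CPM of each gene minus the mean log2 CPM of 9 pan-neuronal genes, per mouse, with mean and SD; every panel spans the same range of log2 units. Relative to this list, itself lower in BCAS mice, Grik2, Grik3 and Grik5 lie higher in all 3 BCAS mice. Grid1 and Grik4 split between the BCAS mice on opposite sides of the sham range.

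Partners of these receptors were taken from a list of 15 matched genes, all tested. With edgeR 6 were called lower and none higher (0 at an unadjusted P under 0.05, 0 with DESeq2 and 0 with limma-voom). Of all tested genes 13.2% were called lower and 18.0% higher. The median log2 fold change of the 15 genes was -0.24. Without sham mouse 1 the count of lower genes was 3. The auxiliary subunits Neto1 and Neto2, which bind kainate receptors and slow their gating, were both lower. Neto1 stood at 96.1, 93.2 and 96.8 CPM in sham mice and at 77.4, 59.0 and 41.3 CPM in BCAS mice (log2 fold change -0.69, standard error 0.19, edgeR adjusted P = 0.0219). BCAS mouse 1 was highest and BCAS mouse 3 lowest, as for Grik4. This order of BCAS mice was found in 2 of the 15 partner genes (13.3%), against 15.4% of all tested genes. Neto2 stood at 84.7, 68.2 and 74.6 CPM in sham mice and at 54.3, 62.9 and 56.1 CPM in BCAS mice (log2 fold change -0.39, standard error 0.098, edgeR adjusted P = 0.0160).

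Among the C1q-like proteins, which mossy fibres secrete and which cluster kainate receptors, 1 of the 2 listed genes was called lower. C1ql3 fell from 51.5 ± 3.27 to 33.5 ± 3.41 CPM (SD, n = 3; log2 fold change -0.62, standard error 0.097, edgeR adjusted P = 0.00184). C1ql2, which also marks dentate granule cells, was at 89.4, 111 and 85.8 CPM in sham mice and at 136, 54.5 and 84.8 CPM in BCAS mice (log2 fold change -0.06, edgeR adjusted P = 0.901). BCAS mouse 1 had the highest and BCAS mouse 2 the lowest C1ql2 level. Of the 5 listed dentate granule cell markers, to which C1ql2 belongs, 3 were called lower (median log2 fold change -1.16), against 13.2% of all tested genes. The 3 were Dsp, which encodes the junction protein desmoplakin (-1.31, edgeR adjusted P = 0.0246), Lct (-1.16, 0.0360) and Tdo2 (-1.50, 0.00288). None of the 3 overlapped between the groups, which held, with BCAS mice lower, for 22.7% of tested genes. The granule cell transcription factor Prox1 was not called (-0.14, edgeR adjusted P = 0.699). The part of these cells in the results for C1ql2 and C1ql3 was not tested. Whether the changes of C1ql2 and C1ql3 differ was not tested.

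The presynaptic neurexins bind both the C1q-like proteins and the cerebellin ligands of GluD1. Nrxn3 fell from 161 ± 6.79 to 105 ± 12.1 CPM (SD, n = 3; log2 fold change -0.61, standard error 0.094, edgeR adjusted P = 0.00174). Nrxn2 (log2 fold change -0.11, edgeR adjusted P = 0.450) was not called. None of the 4 cerebellin genes was called. Cbln4 was at 18.4 to 31.6 CPM in sham mice and 14.1 to 46.0 CPM in BCAS mice, Cbln1 at 11.4 to 17.7 and 7.78 to 22.5 CPM, and Cbln2 at 9.29 to 11.8 and 8.86 to 9.94 CPM. Cbln3 stayed below 1 CPM in every mouse. For Cbln1 and Cbln4 the BCAS mice covered the whole sham range.

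Of the intracellular partners, the scaffold Dlg4 (PSD-95) fell from 755 ± 11.2 to 511 ± 82.9 CPM (SD, n = 3; log2 fold change -0.56, edgeR adjusted P = 0.0102). The PDZ protein Grip1 fell from 27.1 ± 2.08 to 19.7 ± 4.04 CPM (log2 fold change -0.47, edgeR adjusted P = 0.0475). Pick1 (-0.24, edgeR adjusted P = 0.148) and Grid2ip (-0.09, edgeR adjusted P = 0.904) were not called. Adarb1, an enzyme that edits the Q/R codon shown above, had 175 ± 16.7 CPM in sham mice and 152 ± 5.36 CPM in BCAS mice (SD, n = 3; log2 fold change -0.21, edgeR adjusted P = 0.0967), with overlap between the groups.

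Among the other ionotropic glutamate receptors, 3 of 4 AMPA subunit genes and 4 of 6 tested NMDA subunit genes were called lower. Of all tested genes 13.2% were called lower. Median log2 fold changes were -0.64 for AMPA and -0.47 for NMDA genes (edgeR), beside -0.25 for the 6 kainate and delta genes. Gria1 fell from 914 ± 60.5 to 440 ± 107 CPM and Grin2a from 292 ± 31.9 to 129 ± 29.7 CPM (SD, n = 3 each; log2 fold changes -1.06 and -1.17, edgeR adjusted P = 0.00191 and 7.89e-04). Gria4 (-0.13, edgeR adjusted P = 0.597) was not called, and Grin2c rose (0.35, edgeR adjusted P = 0.0133). Without sham mouse 2 or without sham mouse 3, 0 NMDA genes were called higher. The count of NMDA genes called lower was 3 without sham mouse 2 or 3 or without BCAS mouse 1 or 3. Among the 4 called lower, Grin2d was nearest the threshold (-0.33, edgeR adjusted P = 0.0498). The mean log2 CPM of Gria1 to Gria4 averaged 8.38 ± 0.075 in the sham group and 7.74 ± 0.22 in the BCAS group, and that of the 6 kainate and delta genes was 6.00 ± 0.053 and 5.71 ± 0.13 (SD, n = 3 each). The difference between the families was not tested.

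**Figure D5:**
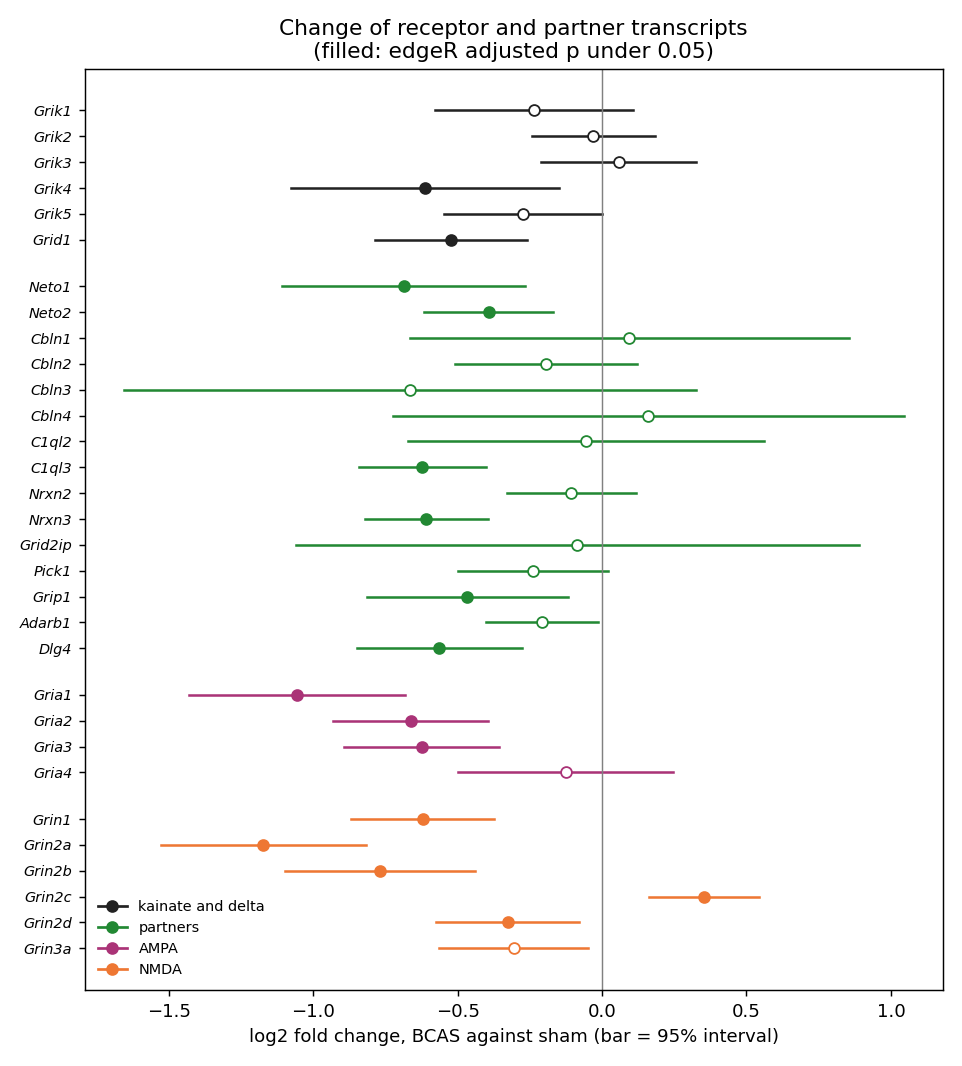
Log2 fold change of BCAS against sham mice with its 95% interval for the kainate and delta genes, their partners and the AMPA and NMDA subunit genes. Filled points passed an edgeR adjusted P of 0.05; Grik4 and Grid1 are filled among the first group, and Grin2c is the one filled point above 0.

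The genes most like each receptor gene were sought among 15629 other genes with a mean of at least 1 CPM, by the root mean square difference of log2 CPM, centred on the sham mean, over the 6 libraries. Grid1 lay closest to Chga, the secretory granule protein chromogranin A (difference 0.026), and to Zc2hc1a (0.043). Grik4 lay closest to Slco2a1, a prostaglandin transporter (0.040), and Nptx1, the neuronal pentraxin that clusters AMPA receptors (0.073). Nptx1 had 620 CPM in sham mice and 420 CPM in BCAS mice (log2 fold change -0.56, edgeR adjusted P = 0.0606). Grik5 was nearest to Ptrh2 (0.031) and Polb (0.033), Grik2 to Slc30a6 (0.026) and Traf3 (0.034), Grik3 to Hmgcll1 (0.036) and Pvt1 (0.049), and Grik1 to Sp9, a transcription factor of interneuron development (0.050), and Zfp689 (0.069). These values describe likeness in 6 libraries.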

How the data were processed

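RNA-seq counts from 3 sham and 3 BCAS mice were used, grouped by their labels. The authors trimmed reads with Trim Galore, aligned them to mm10 with HISAT2 and deposited raw counts per gene from featureCounts, without normalization. The file headers name featureCounts 2.0.3 and GENCODE M20, the labels version 1.6.3. Per these headers each mate of a pair was counted, without regard to strand, and multimapping reads were not counted. Reads shared with the small RNA genes Gm24420 (59 bases of Grik4) and Gm27617 (91 bases of Grid1) were not assigned.

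Of 54752 genes, 54723 matched a symbol; 1 of 16 partner genes did not, and 2 others are not reported here. Genes kept by filterByExpr were scaled by TMM and tested by quasi-likelihood F test in edgeR with group as the one factor, adjusted by Benjamini-Hochberg over all tested genes (R 4.3.3, edgeR 4.0.16, limma 3.58.1, DESeq2 1.42.0). The edgeR P values set the group difference against the spread between these mice, estimated with information shared over all tested genes. A gene was called at an adjusted P under 0.05. Log2 CPM used a prior count of 2. At each level counting error adds to the spread between mice, and 3 counts equal 0.0874 to 0.0994 CPM. The steps were tested on simulated data.

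Named genes were the 6 members, fixed lists of partners, AMPA and NMDA subunits and cell type markers, and the 2 nearest genes per member. Members and lists were chosen with earlier results of these data known. Alternatives were DESeq2, limma-voom, RLE scaling, library totals, other filters, glmTreat, halved counts, a length offset, a replicate block and leaving out each mouse. A choroid plexus covariate was added after seeing the data. Grin3b was too low to be tested.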

Additional observations from a re-analysis of the deposited data

How the results depend on the processing

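Of 378 values recomputed under the alternatives, 351 kept their direction and their side of the threshold, moved by less than the spread between mice or, for counts of genes, stayed within 1.5 times the main count. Among the 351 are counts of 0 that stayed 0 and uncalled genes that stayed uncalled. For levels and shares, a turn of sign within that spread also counted as kept. The Grik5 share difference, for example, went from -0.66 to 0.46 percentage points without BCAS mouse 3. Grid1 was called lower under each alternative except edgeR's glmTreat against a log2 fold change of 1 (-0.52, adjusted P = 1). Grik4 was not called with library totals (-0.54) or glmTreat (-0.61, adjusted P = 1), and leaving out 1 mouse gave -0.94 to -0.44 with edgeR adjusted P from 2.90e-04 to 0.118. DESeq2 (adjusted P = 0.00682) and limma-voom (0.0308) called it. Library totals moved the median log2 fold change of all genes from 0.018 to 0.094. Grik2 then turned to 0.043, and it ran from -0.14 to 0.037 with 1 mouse left out; Grik3 ran from -0.029 to 0.18. These 2 genes passed under none of the alternatives.

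The count of kainate and delta genes called lower was 1 with library totals, 0 with glmTreat and 1 to 2 with 1 mouse left out. With glmTreat, 0 partner genes, 0 AMPA genes and 0 NMDA genes were called lower and 0 NMDA genes higher; this test asks for a larger change. With 1 mouse left out, 3 to 6 partner genes and 3 to 4 NMDA genes were called lower, and 0 to 1 NMDA genes higher. The NMDA count called lower was 3 with library totals or the replicate block and 5 with DESeq2. The share of Grik2 in the kainate sum was 1.32 percentage points higher in BCAS mice, and 2.33 with CPM in place of RPKM. Grid1 against the pan-neuronal list differed by 0.088 with the list's median in place of its mean. That swap shifts every gene by the same amount, as for Grik1 from 0.31 to 0.40. Without the division by length, longer genes weigh more in the kainate sum, and Grik2 is the longest kainate gene at 13246 bases. The cause of the group differences themselves was not tested.

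Sham and BCAS mice that share a number in their titles had residual correlations of 0.036, -0.31 and -0.16, so these numbers were not taken to pair the mice. The count columns number the BCAS libraries 2 to 4 instead. That would set sham mice 2 and 3 beside BCAS mice 1 and 2 (0.22 and 0.35) and leave the others without a partner. Summed choroid plexus markers were at 4116 CPM in sham mouse 2 and at 5977 and 3242 CPM in BCAS mice 1 and 3. They were at 70.1 CPM in sham mouse 3 and 40.5 CPM in BCAS mouse 2. The part of these markers in the correlations was not tested. The block used the titles. With the replicate block Grid1 was -0.53 (edgeR adjusted P = 0.0235) and Grik4 -0.67 (0.0414), and 2 of the 6 genes were called lower. With the choroid plexus level as a covariate these were -0.51 (0.000996) and -0.64 (0.0252). The smallest permutation P with 3 mice per group, 0.1, limits the tests of pairs.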

Other observations

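Markers of tissue beside the hippocampus are given here as values. Of 4 thalamic markers, Lef1 rose from 4.47 ± 0.619 to 9.13 ± 1.19 CPM (SD, n = 3; edgeR adjusted P = 0.00247) and Prkcd from 27.8 ± 5.67 to 52.2 ± 21.1 CPM (edgeR adjusted P = 0.0265). Slc17a6, the glutamate transporter of thalamic neurons, had 34.4, 41.1 and 31.6 CPM in sham mice and 23.4, 27.2 and 47.5 CPM in BCAS mice (edgeR adjusted P = 0.726). Tcf7l2 was not called (edgeR adjusted P = 0.0929). The source of Lef1 and Prkcd RNA was not tested. Ttr, the main choroid plexus transcript, had 882, 3769 and 38.0 CPM in sham mice and 5456, 23.7 and 2928 CPM in BCAS mice.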
